A study of Sus scrofa with 21 samples.

Results

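T cell signalling and costimulation was described here through 9 genes: the kinases LCK and ZAP70, the adaptors LAT and LCP2, the costimulatory receptors CD28 and ICOS, the inhibitory receptor CTLA4, and the transcription factors TCF7 and GATA3. A gene was measured when its symbol was the gene name that the scanner files gave to a probe, which held for 5 of the 9 genes, of 10706 genes so named on the array, and for 12 of its 60305 probes. LCK had 4 such probes, GATA3 had 3, ICOS had 2, CTLA4 had 2 and LCP2 had 1. CD28 was found through a locus number and a probe described as LAT protein through its description, each with 1 probe, and both are given apart from the 5. ZAP70 and TCF7 were the gene name of no probe and were not analysed here.

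The study compared whole blood of 10 DD pigs and 11 LW pigs, all 60 days old, with 1 Agilent one-colour array per pig. DD pigs (labelled SLAdd) come from an inbred line that is homozygous for 1 haplotype of the SLA, the major histocompatibility complex of the pig, and LW pigs are Large White, a commercial breed. Both groups received the same standard diet at will and no treatment. A difference between DD and LW is therefore a difference between an inbred line and a breed over the whole genome, not between SLA haplotypes. The DD pigs came from 5 litters and the LW pigs from 6, with at most 2 siblings per sow. The arrays lay on 3 chips, with 3 DD and 4 LW pigs on the first, 4 and 4 on the second, and 3 and 3 on the third.

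When a T cell receptor meets its antigen, LCK phosphorylates the CD3 chains, ZAP70 docks there, and LAT and LCP2 (also called SLP-76) assemble the enzymes that release calcium and activate Ras. CD28 and ICOS add a second, costimulatory signal, and CTLA4 competes with CD28 for the same ligands and dampens the response. TCF7 and GATA3 are needed for T cells to form in the thymus, and GATA3 also directs helper cells towards the Th2 type. In blood, LCK, ICOS and GATA3 are found mainly in lymphocytes, whereas LCP2 is also used by platelets, monocytes and granulocytes.

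In the RefSeq annotation of the pig assembly Sscrofa11.1, LCP2 lies at chr16:53696974-53741736, GATA3 at chr10:63367684-63397977, LCK at chr6:88719886-88745922 and LAT at chr3:18638992-18644353. CD28 (chr15:107128103-107155431), CTLA4 (chr15:107283081-107288041) and ICOS (chr15:107350253-107370123) are direct neighbours, with 0 annotated genes between CD28 and CTLA4 and 0 between CTLA4 and ICOS. TCF7 lies at chr2:136422740-136456323. The exon each probe falls in was not looked up, since no genome sequence was used.

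The probes below are shown because the values of their genes turn on them, and each sequence was read from the scanner files. LCP2 was read by a single probe, of which the first 30 bases are printed. LCK probe 3 and the only probe named TXLNA carried the same 60 bases, of which the last 30 are printed with the polyadenylation letters AATAAA in capitals. LCK probe 1 is shown whole beside them.
LCP2 probe 1: aggccaaaataagattacactcctcagaat
LCK probe 3: aaaccacattaAATAAAgagtctgttgcct
TXLNA probe 1: aaaccacattaAATAAAgagtctgttgcct
LCK probe 1: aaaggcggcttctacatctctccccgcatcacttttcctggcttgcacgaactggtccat

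The 3 GATA3 probes give an internal check, since probes 1 and 3 read nearly the same stretch and probe 2 another. Over 54 aligned bases probes 1 and 3 differed at 1 position, T43G, counted from 1 at the 5′ end of probe 1, and that base is in capitals in the 30 bases around it. Probe 2 shared no run of more than 5 bases with probe 1.
GATA3 probe 1: ttccctaaggaacagTgtctctctagtgct
GATA3 probe 3: ttccctaaggaacagGgtctctctagtgct
GATA3 probe 2: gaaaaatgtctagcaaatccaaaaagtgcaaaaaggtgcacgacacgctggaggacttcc

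For the receptors CTLA4 and CD28 the probes show what was read on the arrays that gave little signal. CTLA4 probes 1 and 2 overlapped by 25 bases, in capitals. The capitals in the CD28 probe are 12 bases that encode the motif of the CD28 tail to which PI3-kinase binds.
CTLA4 probe 1: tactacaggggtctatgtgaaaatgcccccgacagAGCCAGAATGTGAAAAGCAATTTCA
CTLA4 probe 2: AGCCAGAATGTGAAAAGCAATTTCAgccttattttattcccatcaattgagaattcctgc
CD28 probe 1: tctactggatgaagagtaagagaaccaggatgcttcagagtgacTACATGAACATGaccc

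Levels are log2 normalized intensities from the deposited matrix, and a gene with several probes has their average. Differences are DD minus LW on the log2 scale (log2 FC), fitted in limma on breed and chip, with siblings blocked by sow. A difference was called at a Benjamini-Hochberg adjusted p below 0.05 over all 34394 genes and unnamed probes tested. At the median, the arrays of DD pigs were dimmer. From 44.7% to 61.0% of probes were well above background in DD pigs (median 51.9%) and 53.0% to 63.8% in LW pigs (median 59.7%). The brightness of an array, taken as the 75th percentile of processed signals in log2 units, ranged from 6.56 to 8.49 in DD pigs (median 7.64) and from 7.37 to 8.62 in LW pigs (median 8.41).

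Of the 5 measured genes, LCP2 and GATA3 were lower in DD than in LW pigs, and LCK and ICOS did not pass the test. CTLA4 was tested too, but lay too near background to compare. The call was made for 2 of 5 genes, both lower in DD, against 20.8% of all features called and 9.41% called lower in DD (11.4% were called higher). LCP2 was about 2.02-fold and GATA3 about 1.68-fold higher in LW pigs. In whole blood, fewer cells of a type and less RNA per cell cannot be told apart. LCP2 was read by a single probe, and whether both breeds carry the same bases under it was not tested.

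LCP2, the adaptor that links the receptor to phospholipase C, had the largest difference of the 5. Its level was 10.96 in the lowest DD pig, 11.19 at the median and 11.35 in the highest. In LW pigs it was 10.74 in the lowest, 12.32 at the median and 12.78 in the highest. Of the 11 LW pigs, 10 lay above every DD pig and 1 (animal 02) lay below every DD pig. The log2 FC was -1.01 ± 0.156 (SE), with an adjusted p of 0.00025 in limma and a 95% confidence interval of -1.34 to -0.69. Within the chips it was -0.57, -1.19 and -1.25, lower in DD on all 3, and the interaction of breed and chip had an adjusted p of 0.453. With each litter reduced to its mean, the difference was -0.91 (exact two-sided permutation, p = 0.0130, of 11 litters in all 462 divisions, which cannot give less than 0.00216).

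The DD pigs were also close to one another in LCP2. The SD of the level was 0.134 over the 10 DD pigs and 0.595 over the 11 LW pigs. After the chip was removed, the SD in DD was 0.437 times that in LW, and 0.922% of all features had a lower ratio. Without LW animal 02 the ratio was 0.662, with 6.74% of features lower, and the log2 FC was -1.11 with an adjusted p of 4.68e-06 in limma. The SD in LW pigs thus rested in large part on 1 animal, whereas the difference between the breeds was as large without it.

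GATA3 was lower in DD pigs by a smaller amount and with more overlap. Its level in DD pigs was 9.63 in the lowest, 10.66 at the median and 11.07 in the highest. In LW pigs it was 10.59 in the lowest, 11.32 at the median and 11.96 in the highest. All 10 DD pigs lay below the LW median, 5 lay below every LW pig, and 7 LW pigs lay above every DD pig. The log2 FC was -0.75 ± 0.188 (SE), with an adjusted p of 0.0131 in limma and a 95% confidence interval of -1.14 to -0.36. It was -0.30, -0.99 and -0.93 within the chips, and -0.72 between litter means (exact two-sided permutation, p = 0.00433).

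**Figure D1:**
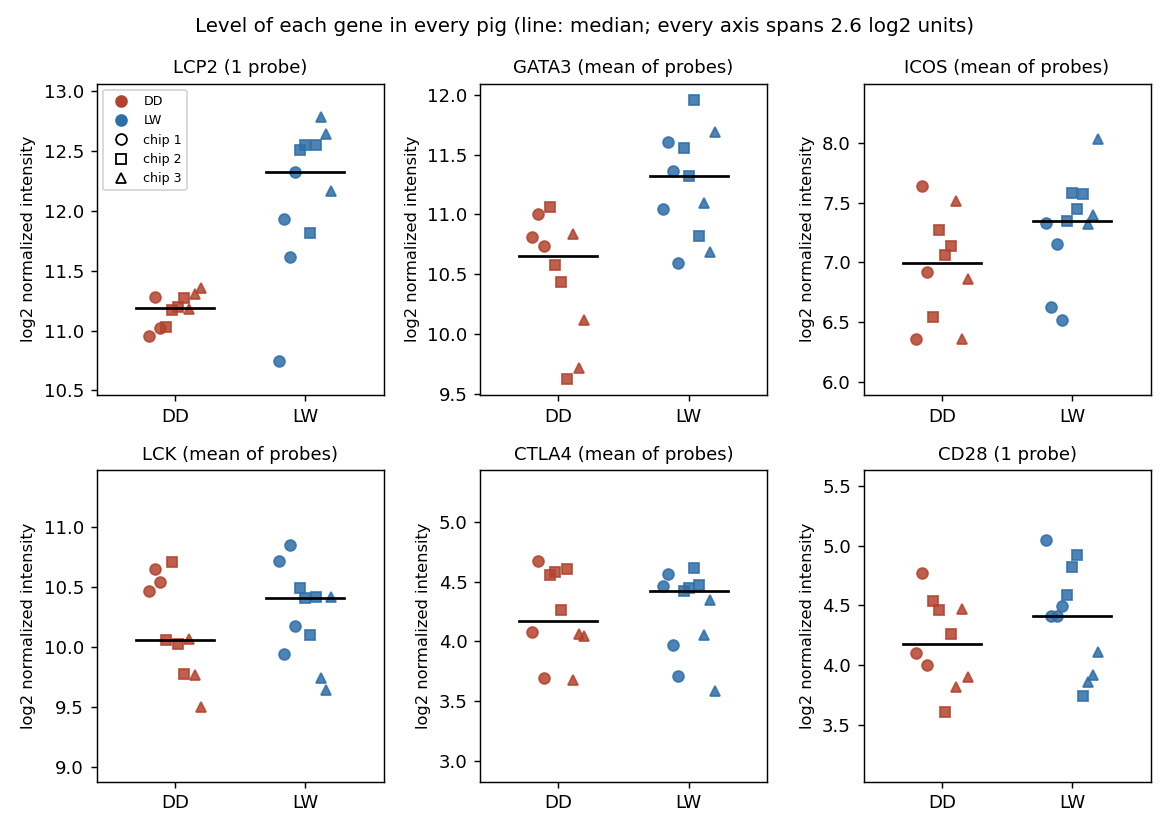
Level of LCP2, GATA3, ICOS, LCK, CTLA4 and CD28 in each pig (log2 normalized intensity, vertical axis) by breed, with the marker shape giving the chip and the line the median. LCP2 in DD pigs lies between 10.96 and 11.35, below 10 of the 11 LW pigs, whereas LCK overlaps over nearly its whole range.

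The GATA3 probes of the shared stretch were called, whereas the probe from another stretch was not. Probes 1 and 3, which share their target apart from the substitution given above, had log2 FCs of -0.75 (adjusted p = 0.00288 in limma) and -0.83 (adjusted p = 0.00176), and their values followed each other with r = 0.995 over the 21 pigs after chip and breed means were removed. A further probe (GATA3 probe 4 in the plot), which carried another name and was identical to probe 1 over 54 bases, gave -0.77 (adjusted p = 0.00282). Probe 2, from another stretch of the transcript, gave -0.67 with an SE of 0.341 and an adjusted p of 0.155, was well above background on 9 of the 10 DD arrays, and followed probe 1 with r = 0.478. All these probes were lower in DD, and 21.7% of single probes were called. Which stretch reads GATA3 better was not tested, nor whether both breeds carry the same bases under these probes.

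ICOS, the inducible costimulator of activated T cells, was at 6.36 in the lowest DD pig, 6.99 at the median and 7.64 in the highest. In LW pigs it was 6.52 in the lowest, 7.35 at the median and 8.03 in the highest. The breeds overlapped over most of their range. The log2 FC was -0.35 ± 0.173 (SE), with an adjusted p of 0.140 in limma and a 95% interval of -0.71 to 0.00365. Chip by chip it was 0.07, -0.48 and -0.67, and between litter means -0.38 (exact two-sided permutation, p = 0.104).

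Only 1 of the ICOS probes was bright. Probe 2 was well above background on 2 DD and 5 LW arrays, and probe 1 on all. Probe 1 gave a log2 FC of -0.49 (adjusted p = 0.0712 in limma), and a probe under another name with the same 60 bases (ICOS probe 3) gave -0.50 (adjusted p = 0.0633), with r = 0.996 between these copies. ICOS passed the threshold in 2 settings. Without DD animal 06 its log2 FC was -0.49 (adjusted p = 0.0150), and without the first chip -0.56 (adjusted p = 0.0381).

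LCK, the kinase that starts the signal, showed the smallest difference among the named members well above background. Its level was 9.50 in the lowest DD pig, 10.06 at the median and 10.71 in the highest. LW pigs ranged from 9.64 to 10.86, with a median of 10.41. The breeds overlapped over nearly the whole range. The log2 FC was -0.08 ± 0.137 (SE), with an adjusted p of 0.703 in limma and a 95% interval of -0.37 to 0.21, and litter means differed by -0.10 (exact two-sided permutation, p = 0.511). The direction was not stable, since it was 0.13, -0.21 and -0.16 within the chips.

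The LCK probes did not read 1 common signal. Probes 1, 2 and 4 gave 0.29, -0.13 and -0.13, with adjusted p-values in limma of 0.291, 0.667 and 0.579, and followed one another with r of 0.531 to 0.893. Probe 3 was the only LCK probe called, at -0.35 ± 0.0963 (SE, adjusted p = 0.0187), and followed probes 1, 2 and 4 with r of -0.10, 0.07 and 0.33. Its 60 bases are those of the TXLNA probe, as printed above, and the values of these copies followed each other with r = 0.912. TXLNA, which encodes taxilin alpha, a partner of syntaxins, lies at chr6:88660051-88675359 with 7 annotated genes between it and LCK.

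TXLNA was at 9.02 in the lowest DD pig, 9.34 at the median and 9.63 in the highest. In LW pigs it was at 9.47 in the lowest, 9.71 at the median and 10.05 in the highest. Its log2 FC was -0.39 with an adjusted p of 0.0105 in limma. It was not called without the third chip (-0.25, adjusted p = 0.424), with brightness as a covariate (-0.20, adjusted p = 0.481) or with the CD3 mean as a covariate (-0.37, adjusted p = 0.0818). Which of the transcripts these 60 bases read was not tested. Without probe 3 the log2 FC of LCK was 0.01 ± 0.170 (SE, adjusted p = 0.971).

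**Figure D2:**
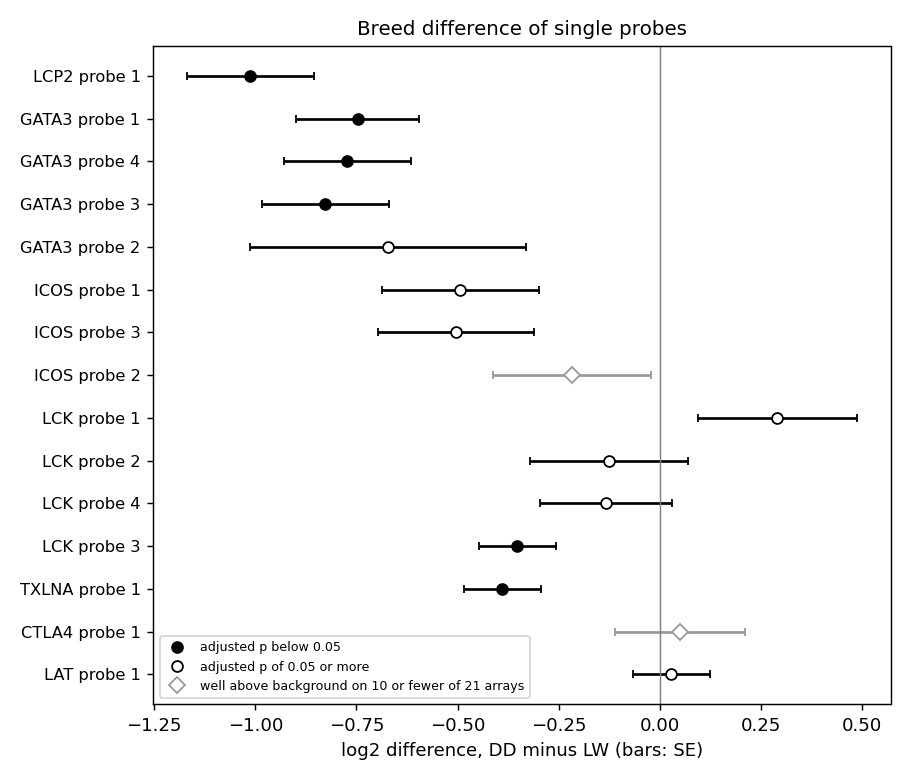
Difference between DD and LW pigs (log2 FC, horizontal axis) of single probes of LCP2, GATA3, ICOS, LCK, TXLNA, CTLA4 and the LAT-described probe, with bars of 1 SE. Filled points have an adjusted p below 0.05, and grey diamonds mark probes well above background on 10 or fewer of the 21 arrays. LCK probe 3 at -0.35 and the TXLNA probe at -0.39 carry the same 60 bases, so their closeness does not show which transcript they read. LCK probes 1, 2 and 4 lie at 0.29, -0.13 and -0.13.

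CTLA4 was not measured well enough to compare. Probe 1 was well above background on 1 DD and 2 LW arrays and probe 2 on 0 arrays. The averaged level ran from 3.67 to 4.67 in DD pigs (median 4.17) and from 3.59 to 4.61 in LW pigs (median 4.42), and no fold change is given.

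The CD28 probe was in the same range. It lay between 3.61 and 4.77 in DD pigs (median 4.18) and between 3.74 and 5.05 in LW pigs (median 4.41). It was well above background on 0 DD and 3 LW arrays, and no fold change is given.

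The probe described as LAT protein was bright on all arrays and overlapped fully between the breeds. It was at 14.09 in the lowest DD pig, 14.43 at the median and 14.97 in the highest. The LW pigs lay between 14.12 and 14.84, with a median of 14.47. Its log2 FC was 0.03 ± 0.0937 (SE), with an adjusted p of 0.846 in limma. This probe was found by its description after values were seen, and its sequence was not matched to the LAT gene.

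Of the CD3 chains, on which LCK and ZAP70 act, 2 of 3 were also lower in DD pigs. CD3G had a log2 FC of -0.64 (adjusted p = 0.00509 in limma) and CD3D of -0.58 (adjusted p = 0.0148), whereas CD3E was at -0.38 (adjusted p = 0.265). The mean of the 3 CD3 genes ranged from 8.30 to 9.74 in DD pigs (median 9.23) and from 9.11 to 10.10 in LW pigs (median 9.77). With this mean as a covariate, 4.06% of all features were called. LCP2 kept a log2 FC of -1.06 ± 0.204 (SE, adjusted p = 0.00466), whereas GATA3 was at -0.24 ± 0.175 (SE, adjusted p = 0.417). LCK turned to 0.23 and ICOS was at -0.11 in this fit, neither called.

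After chip and breed means were removed, LCP2 followed neither LCK, ICOS and GATA3 nor the CD3 genes. Its r over the 21 pigs was -0.22 with LCK, -0.09 with ICOS, -0.17 with GATA3, -0.19 with CD3D, -0.16 with CD3E and 0.13 with CD3G. GATA3 followed CD3D with r = 0.82, LCK followed CD3D with r = 0.72, and ICOS followed LCK with r = 0.62. These are descriptions over arrays that share chips, litters and array brightness.

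**Figure D3:**
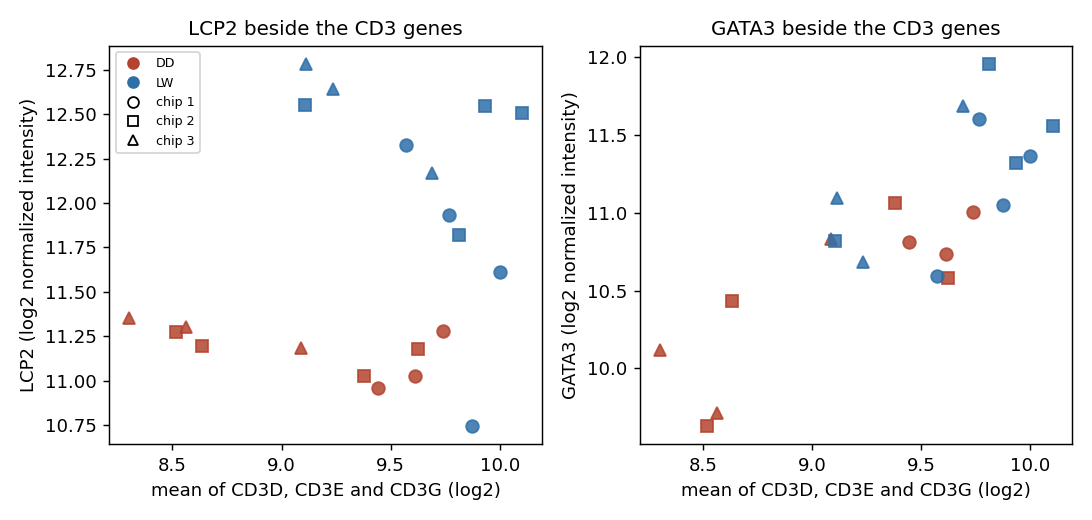
Level of LCP2 and of GATA3 (log2 normalized intensity, vertical axes) against the mean level of CD3D, CD3E and CD3G (horizontal axis) in each of the 10 DD and 11 LW pigs. LCP2 in DD pigs stays between 10.96 and 11.35 over the CD3 range of 8.30 to 9.74, whereas GATA3 is higher where the CD3 mean is higher.

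The genes whose pattern over the pigs was most like that of a member were ranked by Pearson r on the same chip- and breed-centred values, among 9148 named genes. For GATA3 they were CD5 (r = 0.888), a T cell surface receptor that tempers receptor signalling, MCCC1 (r = 0.884) and CTR9 (r = 0.880). For LCK they were STK16 (r = 0.866), IL12RB1 (r = 0.856), a chain of the interleukin 12 receptor, and CTSD (r = 0.841). ICOS was followed most closely by RAN (r = 0.861), DAP3 (r = 0.848) and HNRNPK (r = 0.843). For LCP2, FAM167B (r = 0.674) and SEC22C (r = 0.670) are given. Array brightness was not removed before this ranking. On values centred in the same way, brightness followed ICOS with r = 0.70, GATA3 with 0.52, LCK with 0.41 and LCP2 with 0.09. CTLA4 was too near background to be ranked, since its identical probe copies followed each other with r = 0.346 only.

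Around the members, 4 of the 10 measured genes of the T cell receptor complex and T cell surface were called lower in DD pigs and 0 higher, against 9.41% of all features called lower and 20.8% in either direction. All 10 had a negative log2 FC, and their median was -0.54 against -0.04 over all features. Besides CD3G and CD3D, the called genes were CD247, the zeta chain that ZAP70 binds (-0.63, adjusted p = 0.0306 in limma), and CD8A, the coreceptor of cytotoxic T cells (-0.64, adjusted p = 0.0482). With brightness as a covariate the list median was -0.15, and with the CD3 mean as a covariate 0.11, with 0 genes called in each. Few features were called at all in these fits, 2.15% with brightness and 4.06% with the CD3 mean. CD3D, CD3E and CD3G are in this list and make up the CD3 mean, so that fit removes part of their own difference by construction. The mean level of the list ranged from 7.76 to 9.31 in DD pigs and from 8.04 to 9.47 in LW pigs.

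Of 16 genes of proximal signalling, 2 were called lower and 0 higher, a share near the 9.41% of all features called lower, and the median was -0.14. These were PTPRC (CD45), the phosphatase that primes LCK (-0.43, adjusted p = 0.0229 in limma), and VAV1, the exchange factor that binds LCP2 (-0.29, adjusted p = 0.0452). Of 15 genes of distal signalling, 4 were called lower and 0 higher, against the same 9.41%, and the median of -0.05 was close to the -0.04 of all features. They were PIK3R1, the regulatory subunit of PI3-kinase (-0.76, adjusted p = 0.0367), NFATC3, a calcium-dependent transcription factor (-0.36, adjusted p = 0.0429), BCL10, an adaptor on the way to NF-kappaB (-0.31, adjusted p = 0.0313), and PPP3CB, a catalytic subunit of calcineurin (-0.27, adjusted p = 0.0394).

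Among 14 costimulatory and coinhibitory genes tested, 2 were called higher and 1 lower in DD, against 11.4% and 9.41% of all features. LAG3, an inhibitory receptor that binds MHC class II, was higher in DD pigs, at 7.68 in the lowest, 8.61 at the median and 10.5 in the highest. LW pigs lay between 6.60 and 8.32 in LAG3, with a median of 7.65. The LAG3 log2 FC was 1.21 ± 0.267 (SE), with an adjusted p of 0.00583 in limma. CD70, the ligand of CD27, was also higher in DD (0.48, adjusted p = 0.0177), and CD80, a ligand of CD28 and CTLA4, was lower (-0.48, adjusted p = 0.0175). The median of the list was -0.04.

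Of 18 T cell transcription factors, 5 were called lower in DD and 0 higher, against 9.41% of all features called lower and 20.8% in either direction, with a median of -0.25. They were ID3 (-0.65, adjusted p = 0.0177 in limma) and ID2 (-0.54, adjusted p = 0.0195), which hold E proteins in check, BCL11B, a factor of T cell commitment (-0.51, adjusted p = 0.0254), ETS1 (-0.38, adjusted p = 0.0299), and FOXO1, which keeps T cells quiescent (-0.37, adjusted p = 0.0290). BCL11B was well above background on 3 DD and 8 LW arrays.

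**Figure D4:**
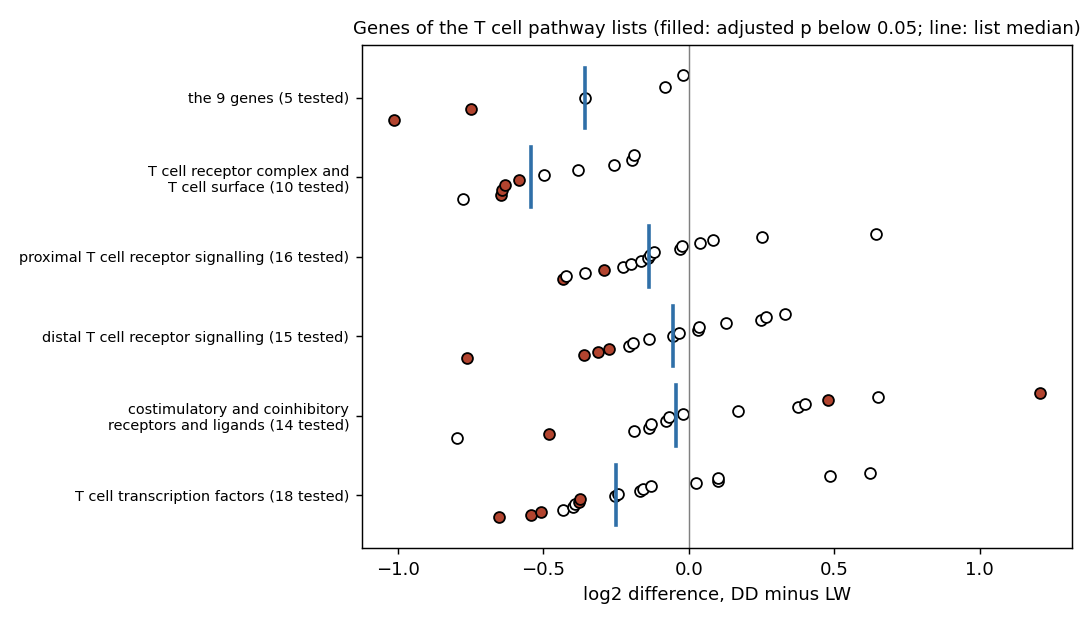
Difference between DD and LW pigs (log2 FC, horizontal axis) of each measured gene, grouped by list, with filled points for adjusted p below 0.05 and a line at the list median. The T cell receptor and surface genes lie wholly below 0, with a median of -0.54.

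Among the markers of other blood cells, the erythroid list had the largest share of calls. Of the erythroid markers 5 of 9 were called higher in DD pigs and 0 lower, against 11.4% of all features called higher, with a median of 0.75. The erythroid median was 0.06 with brightness as a covariate and 0.56 without the third chip, with 0 called in each. Of all 34394 features, 739 were called with brightness and 524 without the third chip. Of the NK and cytotoxic markers 1 of 7 was called lower (median -0.35), of the monocyte markers 2 of 8 (median 0.06) and of the platelet markers 1 of 7 (median -0.15, and -0.68 with brightness as a covariate), with 0 called higher in each and 9.41% of all features called lower. None of 8 B cell markers (median 0.11) and none of 7 granulocyte markers (median 0.17) was called at an adjusted p below 0.05 in limma or had an unadjusted p below 0.05. The mean level of the erythroid markers ranged from 10.49 to 11.98 in DD pigs and from 10.08 to 11.33 in LW pigs. That of the platelet markers ranged from 8.38 to 9.98 in DD pigs and from 8.88 to 10.11 in LW pigs, and that of the monocyte markers from 7.37 to 8.77 in DD pigs and from 7.63 to 8.69 in LW pigs. The NK and cytotoxic markers ranged from 8.81 to 10.74 in DD pigs and from 8.68 to 11.06 in LW pigs, on the same scale. The part of cell composition in the differences of LCP2 and GATA3 was not tested.

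The calls for LCP2 and GATA3 were lost without the third chip, and that for GATA3 also without the second chip and with array brightness as a covariate. Without the third chip, for which the study's methods note a technical bias, LCP2 was at -0.89 (adjusted p = 0.0620 in limma) and GATA3 at -0.69 (adjusted p = 0.221), with 524 features called in place of 7171. With brightness as a covariate, where 2.15% of features were called, LCP2 was at -0.95 (adjusted p = 0.0169) and GATA3 at -0.39 (adjusted p = 0.587). Without the second chip LCP2 was at -1.03 (adjusted p = 0.0105) and GATA3 at -0.61 (adjusted p = 0.0549). Leaving out a chip also leaves fewer arrays, and the SE of LCP2 was 0.223 without the third chip against 0.156 with all. Brightness differed between the breeds, so its covariate takes up part of the breed difference. Fewer arrays, a chip effect and brightness cannot be told apart here. With each of the 21 pigs left out in turn both genes stayed called, LCP2 between -1.11 and -0.95 with an adjusted p of at most 0.00154 and GATA3 between -0.82 and -0.65 with an adjusted p of at most 0.0405.

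The calls of the 18 named genes of the lists changed with the animals and the settings. With every pig left out in turn, 3 of the 18 (CD3D, CD3G and LAG3) were called each time, and without LW animal 18 alone 15 lost the call. None of the 18 was called without the third chip or with brightness as a covariate, where LAG3 lay just above the threshold with a log2 FC of 1.37. Of all 34394 features, 524 were called without the third chip and 739 with brightness. Without the sow block CD8A, VAV1, PIK3R1, PPP3CB and NFATC3 lost the call (adjusted p of 0.0593 to 0.0656), as did CD8A, VAV1, PPP3CB and NFATC3 on litter means (adjusted p of 0.0554 to 0.0764). With the brightest probe in place of the average, CD8A (-0.39, adjusted p = 0.221), PTPRC (-0.21, adjusted p = 0.126) and CD80 (-0.26, adjusted p = 0.139) lost the call, whereas ID2 was at -1.09 and FOXO1 at -1.13. With the CD3 mean as a covariate LAG3 was the 1 gene of the 18 that kept its call, at 1.54 (adjusted p = 0.0113). CD3D and CD3G, also among the 18, are part of that mean, and 4.06% of all features were called in that fit.

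**Figure D5:**
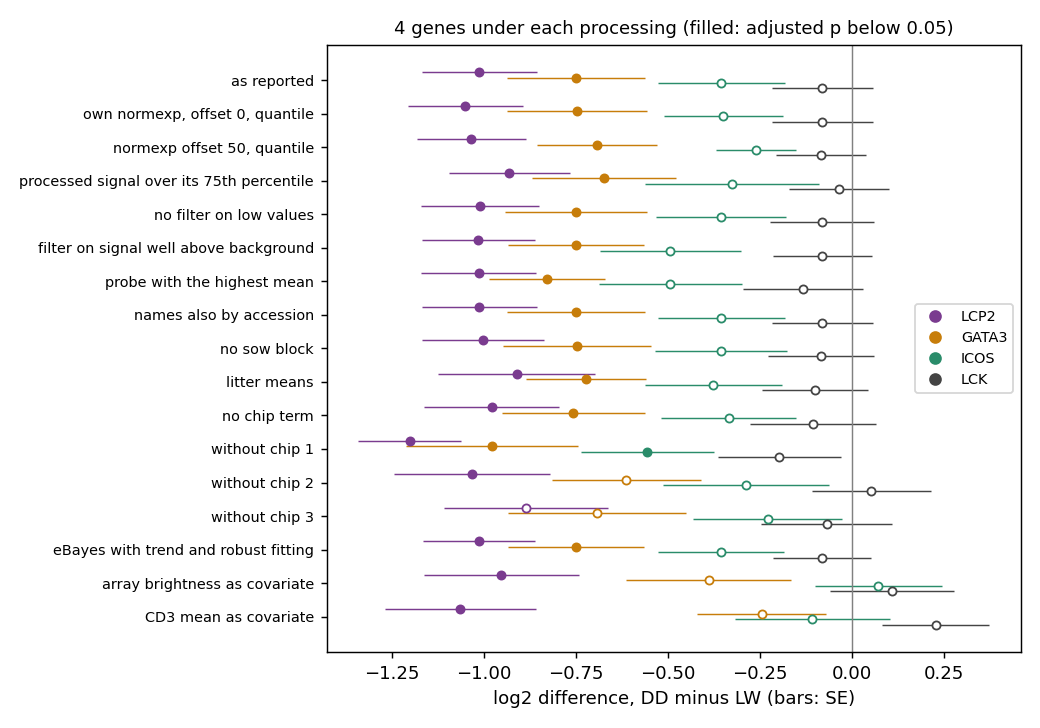
Difference between DD and LW pigs (log2 FC, horizontal axis) of LCP2, GATA3, ICOS and LCK under each way of processing the arrays, with filled points for adjusted p below 0.05. LCP2 stays between -1.20 and -0.89, whereas GATA3 comes closest to 0, at -0.24, with the CD3 mean as a covariate.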

How the data were processed

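Each deposited scanner file gives intensity per probe (spot, local background and processed signals), extracted with Agilent Feature Extraction 10.7.3.1 per the labels. The deposited log2 matrix was made by the authors with normexp background correction, log2 scaling and quantile normalization, after arrays they judged outliers were removed. Of its rows, 2477 carried no probe name and were left out, and the others were used as given. Array sample and breed came from the labels, and chip and sow from the study's animal list.

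Control probes and the 25% of probes with the lowest mean were removed, and probes were averaged by gene name in capitals, which left 34394 features. limma 3.58.1 (R 4.3.3) fitted breed and chip, with the sow as a random block (duplicateCorrelation). The consensus correlation of siblings was -0.108, and eBayes p-values were adjusted by Benjamini-Hochberg over all features. With this block the SE of LCP2 was 0.156 and 7171 features were called. Without it the SE was larger, at 0.165, and 4894 were called. Litter means were compared by exact two-sided permutation on chip-corrected values. The fit was also run on simulated data with independent noise on each array. Such data cannot check the sow block or the difference in array brightness between the breeds. The number of arrays limits the precision.

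Pathway genes were named by rule: of each list up to 5 called genes with the smallest adjusted p, and for each member the 3 named genes with the highest r over the pigs, of which 1 is not reported here and those of CTLA4, CD28 and LAT were left out after their values were seen. The members and lists were chosen with earlier results of these data known. Alternatives covered the normalization, the filter, the averaging and naming of probes, the sow, the chip, the moderation, covariates for array brightness and the CD3 mean, and each pig left out. A split of LCK and ICOS by probe was added after seeing the data. No protein or promoter sequences were used here.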

Additional observations from a re-analysis of the deposited data

How the results depend on the processing

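Both LCP2 and GATA3 stayed called, and lower in DD pigs, in limma with own normexp correction at offset 0 or 50, with the processed signal over its 75th percentile, without a filter on low values, with a filter on signal well above background, with the brightest probe in place of the average, with naming by accession, without the sow block, with litter means, without the chip term, without chip 1, and with trend and robust moderation. Of the members, 1 was called without chip 2, 0 without chip 3, 1 with brightness as a covariate and 1 with the CD3 mean as a covariate, in place of 2. With each pig left out in turn, 2 to 3 were called.

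Over all features, 7171 were called. The count was 4397 without the filter on low values, 4894 without the sow block and 1866 without the chip term. It was 4809 without chip 2, 524 without chip 3, 739 with brightness as a covariate and 1395 with the CD3 mean as a covariate. With 1 pig left out it ranged from 2159 (without LW animal 18) to 11304 (without DD animal 06). The cause of these changes was not tested.

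The log2 FC of LCK changed sign to 0.0534 without chip 2, 0.11 with brightness, 0.23 with the CD3 mean and 0.0105 without the probe shared with TXLNA. ICOS turned to 0.0719 with brightness, and CD3E to 0.41 with the CD3 mean, of which it is a part. No paired analysis was possible because DD and LW pigs are different animals and the labels pair none of them. Signal over background limits CTLA4, CD28, ICOS probe 2 and BCL11B.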
